A study of Mus musculus with 14 samples.

Results

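The levels of 7 maternal factors, of 24064 genes in the count table, were followed through single mouse oocytes with and without Kdm1a. They are Zfp57, Trim28, Trim24, Npm2, Hira, Ctcf and Hsf1, nuclear factors that the oocyte passes to the zygote and that act there on imprints and parental chromatin. The rule that chose them names this known role and uses no counts, although earlier results of these data were known when they were chosen. The question was how far the RNA of these factors in the oocyte differs when KDM1A, a demethylase of histone H3K4 and H3K9, is removed from the female germline. The counts are of RNA and not of protein.

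The oocytes fall into 3 genotypes. The wt/wt oocytes (n = 4, wt1, wt3, wt4 and wt5) carry wild-type Lsd1/Kdm1a on C57BL/6J. The f/f oocyte (n = 1, C3) carries 2 Kdm1a flox alleles (tm1Schüle) on a mixed B6;129 strain and no Cre. The mutant oocytes (n = 5, D1, D2, D3, D4 and D7, labelled mko/mko) come from Kdm1a f/f::Zp3cre females on the same mixed strain, in which Cre under the Zp3 promoter removes the first exon during oocyte growth. The wt/wt and f/f oocytes are together the 5 controls. Strain therefore coincides with wt/wt against the rest, and so does the naming scheme of the libraries, and neither can be told apart from genotype in the pooled comparison. The f/f oocyte is the only control that shares both with the mutants. Poly(A) RNA was read from the 3' end, up to about 3 kb into the transcript. The labels do not give the age of the females or say which oocytes came from the same female, so p-values measure the spread between these oocytes. C3, D3, D4 and D7 have 2 libraries each, which were summed on the reading that a shared name is 1 oocyte. One C3 column of the count table has the letter and the digit in the other order (3C), and was taken as C3 because it fits no other title. Npm2 and Hsf1 were also called with only the other C3 library in use. The labels number them as separate oocytes, and treating them so is one of the alternatives given at the end.

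Genomic imprints are DNA methylation marks set in the germline that survive the wave of demethylation after fertilization. ZFP57, a KRAB zinc finger protein, binds methylated TGCCGC hexamers within them and recruits TRIM28, a corepressor that brings in the histone H3K9 methyltransferase SETDB1 and DNA methyltransferases. At the same time the sperm genome is unpacked and refilled with maternal histones by chaperones such as nucleoplasmin (NPM2) and HIRA, and the new genome begins to be read under factors such as CTCF, TRIM24 and HSF1.

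Of the 7 genes, Zfp57, Trim28, Trim24, Ctcf and Hira had promoters among the RefSeq sequences of GRCm38.p6, taken here as the 250 bases before each transcription start. Npm2 and Hsf1 had none. The TGCCGC hexamer of ZFP57, searched on both strands, was present in 1 of these 5 genes (8 windows), Trim28, in 8.68% of all 32851 windows and in 9.84% of all 27025 genes with a window. The heat shock element, searched as GAANNTTC, a palindrome, was present in none of the 5, in 6.69% of all windows and in 7.73% of all genes. In the gene lists described below, 6 of 26 imprinted genes (40 windows) held the hexamer and 6 of 13 heat shock genes (18 windows) held the element. The windows shown here are those of Trim28, of the imprinted gene Mest and of the heat shock gene Hspb1, the last pair because both genes were called in the comparison that follows. Capitals mark TGCCGC or its reverse complement GCGGCA in Trim28 and Mest, and GAANNTTC in Hspb1. The windows are on the plus strand, at chr7:13023902-13024151 for Trim28, chr6:30737803-30738052 for Mest (1 of its 3 RefSeq starts) and chr5:135887669-135887918 for Hspb1.
Trim28: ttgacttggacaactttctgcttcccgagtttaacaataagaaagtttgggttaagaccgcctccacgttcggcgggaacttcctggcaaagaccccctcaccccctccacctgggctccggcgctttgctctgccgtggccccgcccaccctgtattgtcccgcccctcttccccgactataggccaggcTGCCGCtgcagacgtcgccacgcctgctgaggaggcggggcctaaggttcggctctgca
Mest: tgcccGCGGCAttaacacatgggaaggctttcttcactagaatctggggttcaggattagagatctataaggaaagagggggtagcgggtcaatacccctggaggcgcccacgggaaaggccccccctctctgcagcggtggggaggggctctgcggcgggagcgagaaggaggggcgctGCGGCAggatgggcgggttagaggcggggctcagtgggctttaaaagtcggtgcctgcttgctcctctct
Hspb1: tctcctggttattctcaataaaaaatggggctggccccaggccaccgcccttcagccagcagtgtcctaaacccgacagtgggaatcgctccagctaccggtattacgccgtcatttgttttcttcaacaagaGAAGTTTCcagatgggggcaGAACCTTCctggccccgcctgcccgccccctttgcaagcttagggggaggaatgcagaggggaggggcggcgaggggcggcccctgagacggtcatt
Counted from the transcription start, the matches begin at -59 in Trim28, at -245 and -70 in Mest, and at -117 and -97 in Hspb1. A match is a run of letters and not a measured binding site.

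Total counts ranged from 1375187 to 1892015 for wt/wt and from 2016701 to 6926076 for mutants, and C3 had 6928548. Values in CPM are counts scaled by a library size adjusted with TMM, which is set on the bulk of genes, and 3 counts correspond to 0.455 to 1.82 CPM. Kdm1a itself, counted first as a check of the labels, had 12.1 to 148 CPM in the controls, the f/f oocyte being the highest, and 0 to 4.97 CPM in the mutants. Its log2 fold change was -5.02 (standard error 0.86, adjusted p = 0.0011 from edgeR), with no overlap between mutants and controls. Reads were taken from the 3' end and not only from the deleted first exon, so Kdm1a RNA lacking it would be counted too. All 13 oocyte markers were counted, with sums of 11907 to 29935 CPM in wt/wt, 52867 in f/f and 59391 to 118419 in mutant oocytes. Of these markers 10 were called, all higher in mutants, with a median log2 fold change of 2.54 over the 13, among them Zp2 at 4.75 and Ooep at 4.55. Of 15 cumulus and granulosa cell markers 8 had no count in any oocyte, and the sums of the list were 11.2 to 67.9, 69.6 and 83.9 to 154 CPM. Most of that sum is the aromatase gene Cyp19a1, at a mean of 37.7 CPM in controls and 105 CPM in mutants (log2 fold change 1.48, adjusted p = 0.0263 from edgeR). Kitl, the only other one of this list tested, was at -0.34, and Has2 had a mean of 2.07 CPM in controls and 0.122 CPM in mutants. The part of these markers in the results was not tested. Over the 9198 genes tested, 25.9% were called between mutants and controls (edgeR, adjusted p below 0.05, log2 fold change of 1 or more in size), 14.7% higher in mutants and 11.2% lower.

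Of the 7 factors, 6 passed the filter on low counts, and 2 of these 6 were called. Npm2 rose and Hsf1 fell in mutant oocytes. Zfp57, Trim28, Trim24 and Ctcf did not pass the test, and Hira was too low to be tested. A share of 2 in 6 stands beside the 25.9% of all genes. In none of the 6 did the oocytes of the groups separate without overlap, which 16.2% of all genes tested did.

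**Figure D1:**
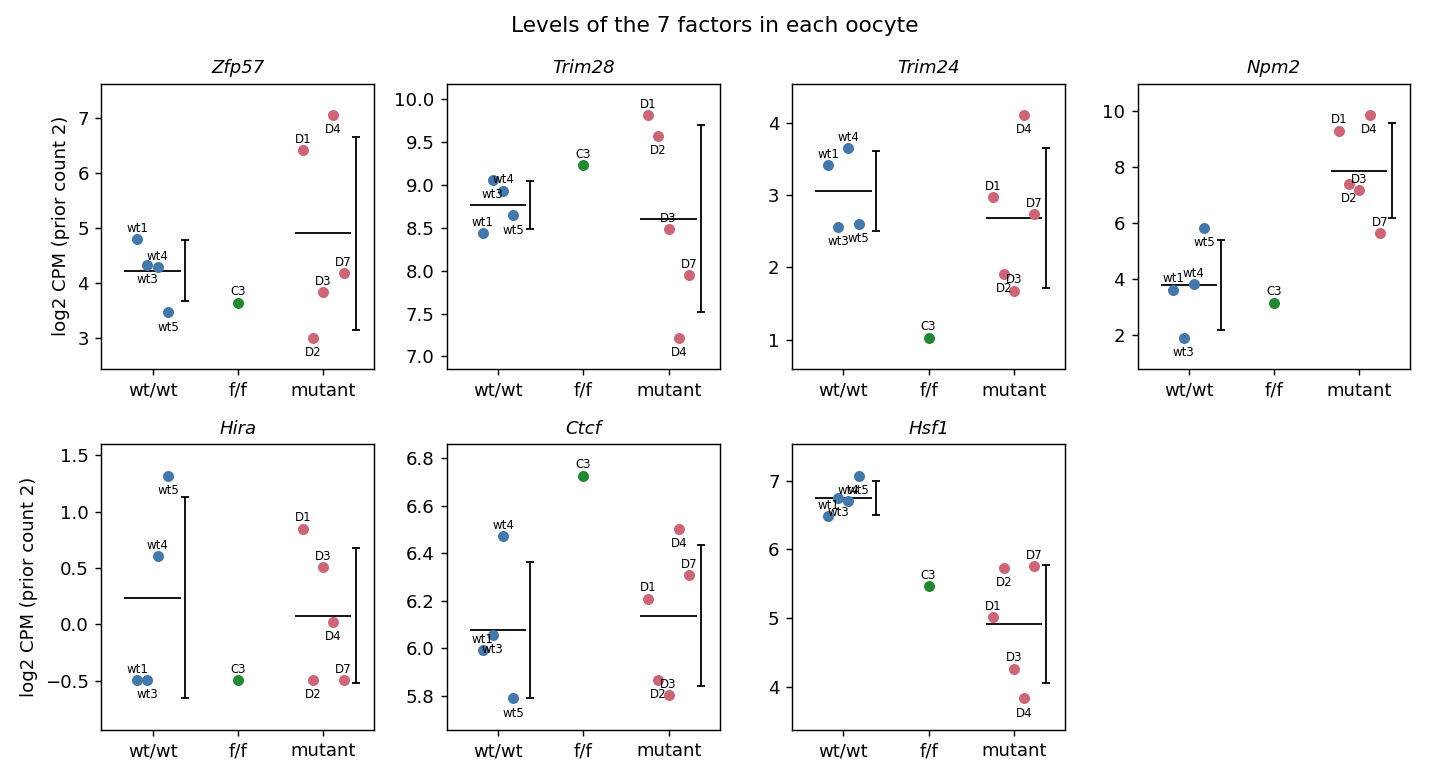
Level of each factor in each oocyte, as log2 CPM with a prior count of 2 on axes that differ between panels. Points are oocytes, horizontal lines and bars are the mean and SD of the 4 wt/wt and of the 5 mutant oocytes, and the f/f group is 1 oocyte; Npm2 lies above every control in all mutants but D7, which is below wt5 alone, and Hsf1 lies lower in f/f and mutants than in wt/wt.

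Npm2 had the largest difference. The gene (ENSMUSG00000047911, chromosome 14, 70647302 to 70659244 on the minus strand of GRCm38) encodes the oocyte histone chaperone nucleoplasmin, needed for nuclear and nucleolar organization in the egg and zygote. Its level was 11.6, 3.01, 13.5 and 56.4 CPM in wt1, wt3, wt4 and wt5, and 8.20 CPM in the f/f oocyte. In the mutants, taken in the order D1, D2, D3, D4, D7, it was 633, 167, 145, 938 and 49.2 CPM. The mutants D1 to D4 thus lay above every control, whereas D7 lay below wt5 and above the other controls. The means were 18.5 ± 21.5 CPM in control and 386 ± 382 CPM in mutant oocytes (SD, n = 5 each). The log2 fold change was 4.39 (standard error 0.84, 95% interval 2.61 to 6.16, adjusted p = 0.0021, by edgeR over all genes tested). An exact two-sided permutation test on log2 CPM over the 252 groupings gave p = 0.0159, where 0.00794 is the smallest it can give. Without D4 the log2 fold change was 3.76, and without wt5 it was 5.44. Both libraries of D4 were high, at 651 and 1073 CPM, and both of C3 were low, at 7.88 and 7.32 CPM. Npm2 shares 39 exon bases with Xpo7, which lies on the same strand.

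The higher level of Npm2 was seen against each kind of control, although it passed the test only against wt/wt. With wt/wt, f/f and mutant as 3 groups, the log2 fold change of mutants against wt/wt was 4.19 (standard error 0.87, adjusted p = 0.00204 from edgeR). Against the f/f oocyte it was 5.55 (standard error 1.79, 95% interval 1.78 to 9.32, adjusted p = 0.108), and f/f against wt/wt was -1.36 (adjusted p = 0.713). The f/f oocyte had 37 Npm2 counts among its 6928548, a level inside the wt/wt range. Each contrast with f/f, here and in what follows, assumes that this lone oocyte varies like the others. The 3 contrasts share oocytes. Of all genes tested, 31.7% were called for mutants against wt/wt, 1.15% against f/f and 3.49% for f/f against wt/wt. Of the 6 factors, edgeR called 2, 0 and 0 in these contrasts. At an unadjusted p under 0.05, 1 factor, Npm2, passed against f/f, where 20.4% of all genes tested passed, and 0 passed for f/f against wt/wt, where 15.6% of all genes did.

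The sum of oocyte markers was also higher in mutants than in wt/wt oocytes, and so was Cyp19a1, as given above. In the f/f oocyte most of the marker sum was Gdf9, at 38234 CPM, above the wt/wt oocytes (6166 to 15446 CPM). Some oocyte markers, like Npm2, lay in f/f within the wt/wt range, with Zp2 at 36.5 CPM (35.1 to 143 in wt/wt), Zp3 at 149 CPM (112 to 443) and Ooep at 78.4 CPM (29.4 to 299.8). Bmp15, Nlrp5 and Nobox lay within that range too. Beside Gdf9, Dppa3 lay above it at 5544 CPM (847 to 1148), as did Zar1 at 2837 CPM (901 to 2088), Zp1, Mos and Figla. Padi6 lay below it, at 27.5 CPM (37.5 to 110). The mutants with the highest Npm2, D1 and D4, had 2346547 and 6926076 total counts, and D4 was the deepest mutant. Every wt/wt oocyte (at most 1892015) had fewer total counts than every mutant (at least 2016701). The part of depth in the Npm2 values was not tested.

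Hsf1 (ENSMUSG00000022556, chromosome 15, 76477422 to 76501913, plus strand) encodes the main heat shock transcription factor, a maternal factor that drives chaperone genes in the oocyte. It had 88.9, 107, 103 and 134 CPM in the wt/wt oocytes and 43.4 CPM in the f/f oocyte. Among mutants, in the same order, it had 31.7, 52.3, 18.5, 13.5 and 53.2 CPM. Every mutant oocyte lay below every wt/wt oocyte, and the f/f oocyte lay inside the mutant range. The means were 95.3 ± 33.3 CPM in control and 33.8 ± 18.5 CPM in mutants (SD, n = 5 each). The log2 fold change was -1.50 (standard error 0.44, 95% interval -2.43 to -0.57, adjusted p = 0.0209 from edgeR). The exact two-sided permutation test gave p = 0.0238.

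The position of the f/f oocyte sets what can be said of Hsf1. Against wt/wt oocytes the log2 fold change of the mutants was -1.69 (standard error 0.42, adjusted p = 0.00671 from edgeR), whereas against f/f it was -0.37 (standard error 0.67, 95% interval -1.78 to 1.03, adjusted p = 0.789). For f/f against wt/wt it was -1.32 (standard error 0.76, adjusted p = 0.437). The 2 libraries of C3 gave 25.0 and 64.3 CPM, both below the lowest wt/wt oocyte. The higher of these, the library without the suffix DNA, lay above every mutant library (highest 54.6 CPM), so f/f lies inside the mutant range only with the other library included. Strain and genotype cannot be told apart in the comparison with wt/wt, and the comparison within the mixed strain did not pass the test. Without wt5, D1 or D3 the pooled comparison kept its direction and no longer passed, with log2 fold changes of -1.30, -1.47 and -1.32 (adjusted p = 0.0510, 0.0524 and 0.0546 from edgeR).

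**Figure D2:**
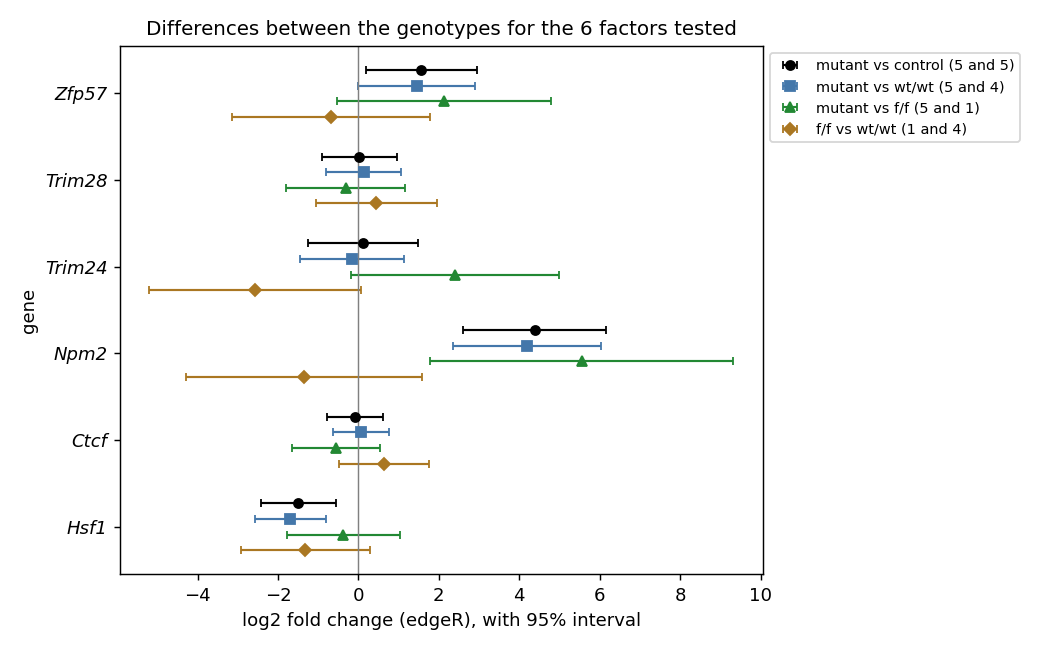
Log2 fold changes of the 6 factors tested in 4 contrasts, with 95% intervals from edgeR; the number of oocytes on each side is in the legend, and the contrasts share oocytes. The intervals of Npm2 lie above 0 in the 3 contrasts of the mutants, while that of Hsf1 against f/f spans 0.

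The pair that protects imprints, Zfp57 and Trim28, did not pass the test, and both genes varied more among mutants than among controls. Zfp57 (ENSMUSG00000036036, chromosome 17, 37001163 to 37010635, plus strand) had 27.1, 19.4, 18.8 and 10.3 CPM in the wt/wt oocytes and 11.7 CPM in f/f. The mutants, D1 to D7 in that order, had 84.8, 7.29, 13.5, 132 and 17.4 CPM. D1 and D4 lay above every control, D3 and D7 lay inside the control range and D2 lay below it. The log2 fold change was 1.56 (standard error 0.65, 95% interval 0.18 to 2.95, adjusted p = 0.0867 from edgeR), and the exact permutation test gave p = 0.373. Leaving out D2 gave 1.85 (adjusted p = 0.0415), which passes, and leaving out D4 gave 0.83. The 2 libraries of D4 had 127 and 118 CPM.

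Trim28 (ENSMUSG00000005566, chromosome 7, 12999114 to 13031035, plus strand), also known as KAP1, had 347, 532, 489 and 399.6 CPM in the wt/wt oocytes and 603 CPM in f/f. The mutants had 903, 759, 358, 148 and 246 CPM in the order D1, D2, D3, D4 and D7. D1 and D2 lay above every control, D4 and D7 below every control, and D3 inside their range. In the 4 oocytes with 2 libraries, the library named with an added DNA (a term the sources used here do not explain) was the lower each time. It had 482 CPM against 688 in C3, 214 against 416 in D3, 107 against 166 in D4 and 172 against 278 in D7. D1 and D2 have no such library. In the libraries without the suffix, D4 and D7 still lay below every control and D3 within the controls. The means were 474 ± 102 and 483 ± 330 CPM (SD, n = 5 each) and the log2 fold change was 0.02 (standard error 0.44, 95% interval -0.90 to 0.95, adjusted p = 0.972 from edgeR). The direction depended on the processing and on the oocytes included, since 8 of 25 alternatives turned it. Among these were -0.45 for library totals and -0.82 after removal of GC and length trends. Trim28 overlaps Zbtb45 on the other strand, with 0 exon bases in common.

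The spread among mutants was wide for both genes. The SD of log2 CPM was 0.55 in controls and 1.75 in mutants for Zfp57, and 98.3% of the genes tested had a lower SD among mutants. For Trim28 it was 0.32 and 1.09, with 80.7% of genes lower among mutants and 8.87% lower among controls. The medians over all genes were 0.74 in controls and 0.72 in mutants. From the lowest to the highest oocyte, Zfp57 covered 2.63-fold in controls and 18.1-fold in mutants, and Trim28 covered 1.74-fold and 6.09-fold. These spreads are a description of 5 oocytes in each group. In D4 the order of the pair was also different, since per kb of transcript Zfp57 (50.9 CPM per kb) was above Trim28 (49.4), whereas in the other 9 oocytes Trim28 was above Zfp57.

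Trim24 (ENSMUSG00000029833, chromosome 6, 37870811 to 37966296, plus strand) belongs to the same family as Trim28 and encodes TIF1-alpha, a cofactor of nuclear receptors that enters the pronuclei of the zygote. Its level was low, at 9.94, 5.17, 11.8 and 5.37 CPM in wt/wt, 1.33 CPM in f/f and 7.11, 3.04, 2.49, 16.5 and 5.97 CPM in the mutants. The mutants and wt/wt oocytes overlapped, and the f/f oocyte, with 6 counts, was the lowest. The log2 fold change was 0.11 (standard error 0.65, 95% interval -1.26 to 1.49, adjusted p = 0.915 from edgeR). Against f/f alone the mutants were at 2.40 (adjusted p = 0.276), and f/f against wt/wt was at -2.56 (adjusted p = 0.336). The direction of the pooled value turned without C3 (-0.16) and without D4 (-0.51), and with library totals in place of TMM (-0.40).

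Ctcf was the steadiest of the 6 among mutants. The gene (ENSMUSG00000005698, chromosome 8, 105636568 to 105682922, plus strand) encodes the insulator protein that binds the unmethylated maternal copy of imprinting control regions such as that of H19 and Igf2. It had 62.9, 65.9, 88.1 and 54.6 CPM in wt/wt, 105 CPM in f/f and 73.3, 57.7, 55.1, 89.8 and 78.6 CPM in the mutants, so that all mutants lay within the control range. The log2 fold change was -0.09 (standard error 0.33, 95% interval -0.78 to 0.60, adjusted p = 0.864 from edgeR). Its SD of log2 CPM was 0.38 in controls and 0.30 in mutants, and 4.95% of the genes tested had a lower SD among mutants. Exons of Ctcf overlap 114 bases of Agrp and 370 bases of Gm5914 on the other strand. Whether reads were counted by strand is not given in the sources used here, so reads of these genes could not be told apart there.

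Hira (ENSMUSG00000022702, chromosome 16, 18877037 to 18970309, plus strand), the chaperone that places histone H3.3 on the paternal genome, was at the limit of the counts. There were 0, 0, 2 and 4 counts in wt1, wt3, wt4 and wt5, 0 in the f/f oocyte, and 2, 0, 2, 2 and 0 in D1, D2, D3, D4 and D7. All but wt5 had fewer than 3 counts, so no fold is given and a difference was not detectable at this depth. In the f/f oocyte, the most deeply counted, 0 counts allow a level of up to 0.664 CPM, for counting error only. The annotation has another protein-coding gene, Gm28539, on the same strand with 2778 exon bases in common with Hira. The count table has no row of that name, and how reads in the shared exons were counted is not given in the sources used here.

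Levels of different genes were compared only as CPM per kb of transcript, with lengths capped at 3 kb because of the 3' coverage. In the controls the order from high to low was Trim28 (158 ± 34.05 CPM per kb), Hsf1 (31.8 ± 11.1), Ctcf (25.1 ± 6.93), Npm2 (18.6 ± 21.6), Zfp57 (6.72 ± 2.59), Trim24 (2.24 ± 1.39) and Hira (0.174 ± 0.264; SD, n = 5). Trim28 was first in all 5 controls, with no overlap with the next gene, and the ranges of Hsf1, Ctcf and Npm2 overlapped. In the mutants the order was Npm2 (387 ± 384 CPM per kb), Trim28 (161 ± 110), Ctcf (23.6 ± 4.85), Zfp57 (19.7 ± 21.3), Hsf1 (11.3 ± 6.17), Trim24 (2.34 ± 1.89) and Hira (0.141 ± 0.159). Npm2 was above Trim28 in D1, D3 and D4, and their ranges overlapped. Hsf1 ranked 2 or 3 in all 5 controls and from 4 to 6 in the mutants. These orders follow the means: Hsf1 was above Zfp57 in D2, D3 and D7, and only in D1 and D4 was Zfp57 the higher. Without the cap on length, Ctcf in mutants was at 18.7 CPM per kb, below the 19.7 of Zfp57. Hira was last in every oocyte.

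**Figure D3:**
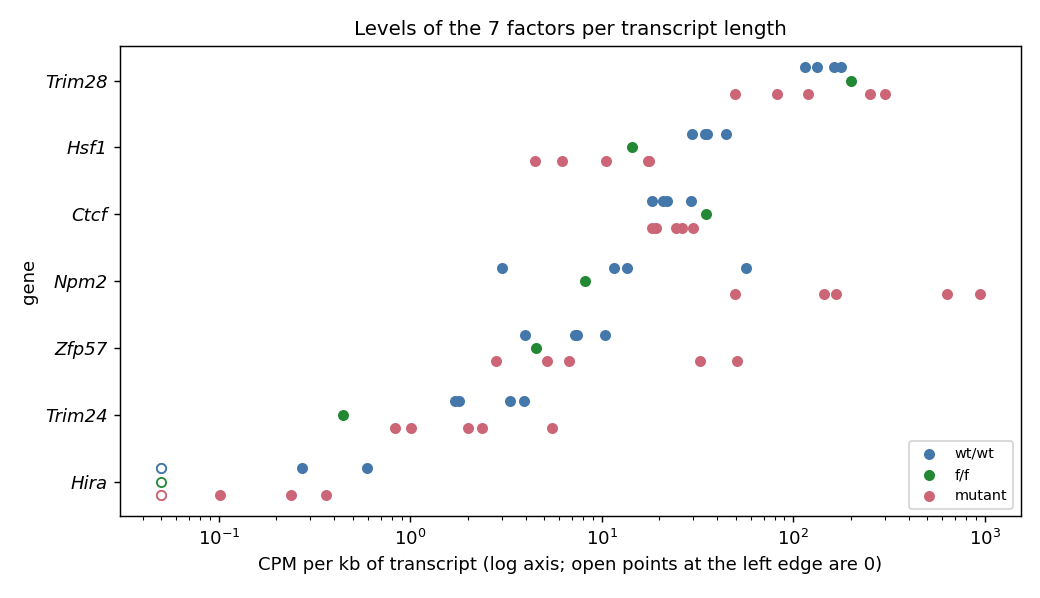
CPM per kb of transcript (log axis) for each factor in each oocyte, with genes ordered by their control mean and open points marking oocytes with 0 counts. The Npm2 points of the mutants reach 940 CPM per kb, against at most 56.6 in controls.

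For each factor the genes with the most similar pattern over the 10 oocytes were found by the root mean square difference of log2 CPM after centring, among 9197 other genes. This choice fixes that a neighbour differs between the groups as the factor does, so their fold changes are a description. For Npm2 they were Tcea3 (0.63) and Calm2 (0.63), with log2 fold changes of 4.32 and 4.67. For Hsf1 they were 3110002H16Rik (0.30) and Tspan5 (0.35), with -1.87 and -1.33. For Zfp57 they were Glmn (0.50) and Sesn3 (0.54), for Trim28 Tbc1d22b (0.25) and Phf2 (0.27), for Ctcf Supt7l (0.22) and Igf2bp2 (0.25), and for Trim24 4930453N24Rik (0.32) and Mrpl13 (0.42).

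The partners of these factors were then described in lists, each with its number of called genes beside the 25.9% and the median log2 fold change of 0.17 of all genes tested. The 7 lists hold 33 called genes, of which 31 are none of the 7 factors. Of the 33, 2 (Tet3 and Kdm1b) also passed for mutants against the f/f oocyte, and 2 (Hat1 and Hspa8) had the opposite sign there. In the list of KRAB zinc finger and TRIM28 silencing genes, all 17 were tested, 2 rose, 3 fell and 12 did not pass, with a median of 0.08. Zfp445, which protects imprints together with Zfp57, rose by 2.07 on the log2 scale (adjusted p = 0.0436 from edgeR), with 0.448 to 11.1 CPM in controls and at least 6.96 CPM (median 13.4) in mutants. Its highest control was the f/f oocyte, which lay inside the mutant range, and mutants against f/f were at 0.46 (adjusted p = 0.815). Chd4, the ATPase of the NuRD complex that TRIM28 recruits, rose by 2.28 (adjusted p = 0.00571), with 7.18 to 79.7 CPM in controls and 130 to 295 CPM in mutants. The highest control of Chd4 was the f/f oocyte, and mutants against f/f were at 1.22 (adjusted p = 0.416). Morc3 (-1.73, adjusted p = 0.00601), Smarcad1 (-1.23, adjusted p = 0.0266) and Trim33 (-1.10, adjusted p = 0.0397) fell. Setdb1 was at 0.08 and Trim66 at -1.65 (adjusted p = 0.892 and 0.393). The count of 5 was 3 without wt1 and 2 without wt3, wt4, D1 or D4.

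Among genes of imprint protection and zygotic DNA methylation, which include Zfp57, Trim28 and Zfp445, 17 of 20 were tested, 4 rose and 2 fell, with a median of 0.30. Dppa3, the maternal protein that shields the maternal genome from TET3, rose by 2.27 (adjusted p = 0.00816 from edgeR), with 847 to 5544 CPM in controls and 7003 to 12633 CPM in mutants. Dnmt1, the maintenance DNA methyltransferase, rose by 3.13 (adjusted p = 0.00261), with 178 to 2026 CPM in controls and 4830 to 8156 CPM in mutants. In both, the f/f oocyte was the highest control, and f/f against wt/wt passed the test on this 1 oocyte, whose spread is borrowed from the other groups, with log2 fold changes of 2.57 (adjusted p = 0.0022) and 2.66 (adjusted p = 0.0097). Mutants against f/f were at 0.70 (adjusted p = 0.445) for Dppa3 and 1.52 (adjusted p = 0.214) for Dnmt1. Dnmt3l rose by 1.94 (adjusted p = 0.0178). Tet3, which oxidizes methylcytosine on the paternal genome, fell by 1.62 on the log2 scale (adjusted p = 0.0129), and Kdm1b, the H3K4 demethylase needed to set maternal imprints, fell by 1.41 (adjusted p = 0.0141). Uhrf1, the partner of DNMT1, was at 1.19 (adjusted p = 0.0691).

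Of 13 tested genes of HIRA and other histone H3 deposition, out of 14 listed, 2 rose (15.4% called) and 0 fell, with a median of 0.43. H3f3a, which encodes H3.3, rose by 1.62 (adjusted p = 0.0101 from edgeR), with 787 to 2926 CPM in controls and 3583 to 5175 CPM in mutants. The other H3.3 gene of the list, H3f3b, was at 0.13 (adjusted p = 0.793 from edgeR), with means of 2220 CPM in controls and 2430 CPM in mutants. The histone chaperone Nasp rose by 1.61 (adjusted p = 0.00453 from edgeR). The highest H3f3a control was the f/f oocyte, and mutants against f/f were at 0.60 for H3f3a (adjusted p = 0.528) and 2.08 for Nasp (adjusted p = 0.103). In the HIRA complex itself, Ubn1 was at 0.24, Ubn2 at 0.61 and Cabin1 at 1.06, and the chaperones Asf1a and Asf1b were at -0.94 and -0.21, with adjusted p of 0.0802 to 0.727. With wt/wt oocytes alone as control, 4 genes of the list were called.

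Beside Npm2, the nucleoplasmin family and other histone chaperones (11 genes, all tested) had 2 genes higher, Npm2 included, and 1 lower, with a median of 0.36. Supt16, a subunit of the FACT complex, rose by 2.82 (adjusted p = 0.00535 from edgeR), with 3.44 to 59.6 CPM in controls and 76.1 to 183 CPM in mutants. Its highest control was again the f/f oocyte, at 3.04 on the log2 scale against wt/wt (adjusted p = 0.0055), and mutants against f/f were at 1.10 (adjusted p = 0.370). Hat1, which acetylates new histone H4, fell by 1.10 on the log2 scale (adjusted p = 0.0323). Its f/f level (68.9 CPM) lay inside the mutant range of 44.8 to 94.5 CPM, and mutants against f/f were at 0.02 (adjusted p = 0.988). The paralogs of Npm2 were at 0.23 for Npm1 and 0.67 for Npm3 (adjusted p = 0.647 and 0.339). Npm2 was the one gene of the family called.

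For CTCF and cohesin, 11 of 14 listed genes were tested, 2 rose and 4 fell, with a median of -0.15. Rad21, the subunit that closes the cohesin ring, fell by 1.19 (adjusted p = 0.0148 from edgeR), with 286 to 601 CPM in controls and 155 to 275 CPM in mutants. Stag1 fell by 2.22 on the log2 scale (adjusted p = 0.00128) and Stag2 by 1.97 (adjusted p = 0.00684). For Stag2 the f/f oocyte (22.6 CPM) lay inside the mutant range of 9.41 to 26.9 CPM, and mutants against f/f were at -0.44 (adjusted p = 0.741), whereas Stag1 in f/f (49.6 CPM) lay above every mutant. Wapal, the release factor of cohesin, fell by 1.12 (adjusted p = 0.0289). Smc1a rose by 1.55 (adjusted p = 0.0251), with 3.31 to 12.6 CPM in controls and 17.4 to 21.1 CPM in mutants. The highest control was the f/f oocyte, and mutants against f/f were at 0.63 (adjusted p = 0.664). The meiotic Smc1b was called higher as well, but it had 1 count over all controls and 1 to 4 counts in 4 of the mutants, with 100 in D4. Ctcfl, the germline paralog of Ctcf, had 27 counts in all and was not tested.

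**Figure D4:**
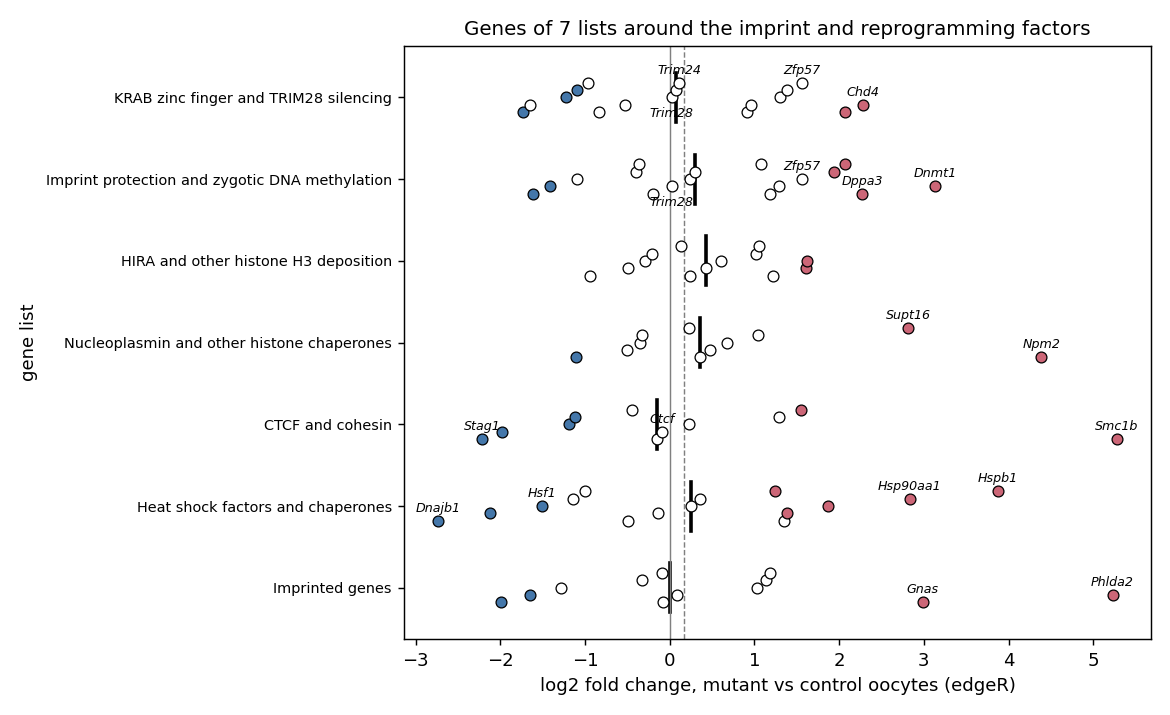
Log2 fold change of each tested gene of the 7 lists, with called genes filled (red higher, blue lower) and the list median as a black bar; the dashed line is the median of all genes tested, at 0.17. Filled points lie on both sides of 0 in every list but that of HIRA, and Npm2 and Hsf1 are the only factors of the 7 that are filled.

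Around Hsf1, 15 of 17 heat shock factors and chaperones were tested, 5 rose and 3 fell, Hsf1 included, with a median of 0.25. Hspb1, whose promoter is shown above, rose by 3.88 (adjusted p = 0.00132 from edgeR), with 12.1 to 14.6 CPM in controls and 38.8 to 641 CPM in mutants, and the f/f oocyte was at 14.4 CPM. Dnaja1, an HSP40 cochaperone, rose by 1.87 (adjusted p = 0.00586). Hsp90aa1 rose by 2.84 (adjusted p = 0.0314), but D4 had 1645 CPM and the other mutants 35.9 to 142 CPM, against 17.9 to 123 CPM in controls. Dnajb1, another cochaperone, fell by 2.73 on the log2 scale (adjusted p = 0.00571), with 9.52 to 19.2 CPM in controls and 0.608 to 5.16 CPM in mutants. Hspa8, the constitutive HSP70, fell by 2.13 (adjusted p = 0.0117), and there too the f/f oocyte (14.8 CPM) lay inside the mutant range, with mutants against f/f at 0.34 (adjusted p = 0.835). Hsf2, the paralog of Hsf1, was at 1.35 and the inducible Hspa1b at 0.36 (adjusted p = 0.268 and 0.845), on 84 and 56 counts in all. Without wt5 the count of 8 became 5.

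Of 32 imprinted genes, 10 had no count and 12 passed the filter. On which of them ZFP57, TRIM28 or CTCF acts was not tested. Of these, 2 rose and 2 fell, and the median was 0.00. Mest, whose promoter is shown above, fell by 1.65 on the log2 scale (adjusted p = 0.0114 from edgeR), with 425 to 906 CPM in controls and 50.9 to 295 CPM in mutants, with the f/f oocyte as the highest. Usp29 fell by 1.99 (adjusted p = 0.00801), with 25.7 to 67.7 CPM in controls and 4.25 to 15.3 CPM in mutants. Gnas rose by 2.99 (adjusted p = 0.00571), with 15.9 to 290.4 CPM in controls and 353 to 1365 CPM in mutants. Phlda2 was called higher, with 0 to 1.66 CPM in controls and 4.48 to 46.5 CPM in mutants, and its controls hold 7 counts in all. Counts per gene do not separate the parental copies, so they say nothing of imprinting itself.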

How the data were processed

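RNA-seq libraries of 14 single-oocyte samples were used. The authors filtered the reads, aligned them to mm10 with TopHat2 2.0.6 (version from the submitters' processing notes), kept unique best alignments and deposited raw counts per RefSeq gene made with HTSeq. Counts of libraries sharing an oocyte name were summed, which gave 10 oocytes. In R 4.3.3, the 60% of genes with the most counts were retained (9198 of 15432) and tested with edgeR 4.0.16 (TMM, quasi-likelihood, Benjamini-Hochberg), with genotype as the only term. Log2 CPM used a prior count of 2. Coordinates came from GENCODE M21 by gene name (22829 of 24064 genes). The alternatives used DESeq2 1.42.0 and limma 3.58.1, other scalings, filters and groupings of libraries, and each oocyte left out. The test was also run on simulated data, with the outcome not given here.

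The members, lists and tests were chosen with earlier results of these data known. The rule named the 7 factors, Kdm1a, the called genes of each list with the 2 smallest p in each direction, textbook partners and paralogs of the factors, and the 2 genes nearest in pattern to each. Dnmt3l, Wapal, Has2, Kitl and the markers summed were named after their values were seen. Intervals from low counts cover counting error only.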

Additional observations from a re-analysis of the deposited data

How the results depend on the processing

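Npm2 and Hsf1 were called by edgeR, DESeq2 and limma voom, with upper-quartile scaling or library totals, with every library as its own sample and with 1 library per oocyte. Library totals shifted the median over all genes by -0.39, and 36.7% in place of 56.7% of called genes were then higher. With the f/f oocyte alone as control, 0 factors were called, with Npm2 at 5.56 (adjusted p = 0.151 from edgeR) and Hsf1 at -0.34 (adjusted p = 0.840). Zfp57 was also called with no filter (1.58, adjusted p = 0.0315) and with every library as its own sample (1.69, adjusted p = 0.0419). Leaving out each oocyte in turn, 1 to 3 factors were called: Hsf1 was lost without wt5, D1 or D3, and Zfp57 gained without D2. The log2 fold change then ranged from 3.76 to 5.44 for Npm2, -1.72 to -1.28 for Hsf1, 0.83 to 1.85 for Zfp57, -0.28 to 0.27 for Trim28, -0.18 to 0.08 for Ctcf and -0.51 to 0.40 for Trim24. Trim28 turned to -0.45 with library totals, -0.33 with every library as its own sample, -0.29 against f/f alone, -0.82 with GC and length trends removed, -0.26 as a difference of log2 CPM, and -0.07, -0.28 and -0.15 without wt1, D1 and D2. Trim24 turned to -0.39 with limma voom, -0.40 with totals, -0.16 against wt/wt alone (or without C3), -0.24 with thinned counts, -0.083 with trends removed and -0.51 without D4. Ctcf turned to 0.077 against wt/wt alone (or without C3) and 0.01 without D3. None of these 3 genes was called in any setting, and the cause was not tested. Of the lists, leaving out an oocyte gave 2 to 6 called genes for KRAB silencing, 4 to 7 for imprint protection, 2 to 4 for HIRA, 2 to 3 for chaperones, 4 to 6 for CTCF and cohesin, 5 to 8 for heat shock and 4 to 5 for imprinted genes, and wt/wt alone gave 4 for HIRA. Uncapped transcript lengths put Ctcf in mutants at 18.7 CPM per kb in place of 23.6, below Zfp57. In the labels, the replicate numbers count libraries within a genotype, and same-numbered libraries had correlations of their deviations of -0.0902 to 0.0984, so the numbers do not pair them. With the replicate block, 2 factors were called, Npm2 at 4.08 and Hsf1 at -1.87, and Trim24 was at -0.50. Hira, Trim24, Hsf2 and Trim66 rest on few counts, 12, 223, 84 and 37 in all, and what keeps them low was not tested.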
